A study of Mus musculus with 8 samples.

Results

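Cholesterol and fatty acid synthesis genes of the mouse were taken from a list of 37 symbols, of which 36 matched a row of the deposited table of raw counts, which held 23366 gene symbols. The members were taken by symbol alone: 17 of those in the table are enzymes of the sterol branch, 11 belong to the fatty acid branch, 6 regulate or move sterols inside the cell, and 2 export cholesterol. The symbol Msmo1 was not a row of the table. After a filter on low counts, 34 members were among the 11629 genes tested. All 8 libraries came from CD4+ T cells of C57BL/6 mice, taken from spleen and lymph node, in 4 groups of 2. Naive cells received no treatment. The other 3 groups got antibodies to CD3e and CD28 and spent 3 days in TGF-beta plus IL-6, the cytokine pair that drives T helper 17 (Th17) differentiation. One of them had no further addition and is called Th17 here, one also received the synthetic lipopeptide PAM3CSK4 at 2 ug/ml, and one received the matrix proteoglycan biglycan. Both ligands act on Toll-like receptor 2, the pathway the study set out to examine. Whether the stated dose also applied to biglycan is not clear from the series text. Naive cells were neither activated, polarized nor cultured as labelled, so these 3 differences cannot be told apart where Th17 is set against naive. The labels do not state whether a group's libraries are separate mice or separate cultures. The p-values therefore reflect the spread among these libraries alone, and that spread may be technical.

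Cholesterol is built from acetyl-CoA through mevalonate, isoprenoid units, squalene and lanosterol, and the same acetyl-CoA feeds fatty acid synthesis through malonyl-CoA. SREBP transcription factors switch on both branches: in the membrane of the endoplasmic reticulum they are escorted by SCAP, retained by INSIG proteins when sterols are plentiful, and released by proteolysis when sterols are short. Liver X receptors act on the other side of the balance: they sense oxidized sterols and are known in mice to induce the exporter genes Abca1 and Abcg1 as well as Srebf1 and Fasn. Activated T cells are known to need new sterols and fatty acids for membrane growth.

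RefSeq promoter windows (build GRCm38.p6) were found for 28 of the 36 members, and the 250 bases before each start were searched on both strands. The CCAAT box bound by NF-Y, a factor that acts together with SREBPs, was written CCAAT or, on the other strand, ATTGG. It was present in 13 of 14 sterol branch genes, 4 of 8 fatty acid branch genes, 4 of 5 regulators and 0 of 1 efflux gene with a window. By window, 22 of 37 member windows (59.5%) held it, against 33.8% of all 32851 windows of the same length. The palindromic E-box CACGTG was in 7 of 37 member windows (18.9%) and in 6.02% of all windows. A strict sterol regulatory element, TCACNCCAC, was in 1 of 37 member windows (2.7%), that of Hmgcs1, and in 1.05% of all. Matching letters describe these windows and do not show binding.

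The promoters of 5 members are shown because they are genes that separated PAM3CSK4 from the other cultures: a lanosterol-forming enzyme, a later sterol enzyme, the sterol sensor partner Insig1, the fatty acid synthase and the cholesterol exporter. Each is written 5′ to 3′ on the gene's strand, from 250 to 51 bases before the RefSeq start. Capitals mark CCAAT or ATTGG and CACGTG, and, in Fasn and Abca1, one further run. In Fasn a CCAAT and an ATTGG overlap as one block, CCAATTGG. The windows lie at chr10:76531355-76531554 on the plus strand for Lss, chr1:169969256-169969455 on the minus strand for Hsd17b7, chr5:28071162-28071361 on the plus strand for Insig1, chr11:120824598-120824797 on the minus strand for Fasn and chr4:53159946-53160145 on the minus strand for Abca1.
Lss: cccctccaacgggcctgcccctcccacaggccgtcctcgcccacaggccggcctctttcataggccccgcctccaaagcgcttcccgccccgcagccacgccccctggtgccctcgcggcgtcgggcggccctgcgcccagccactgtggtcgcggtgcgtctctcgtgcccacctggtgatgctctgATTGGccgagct
Hsd17b7: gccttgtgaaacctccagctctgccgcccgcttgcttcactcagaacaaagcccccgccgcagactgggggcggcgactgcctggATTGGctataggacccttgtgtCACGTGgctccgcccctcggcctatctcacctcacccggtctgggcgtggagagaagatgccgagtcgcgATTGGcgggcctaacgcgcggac
Insig1: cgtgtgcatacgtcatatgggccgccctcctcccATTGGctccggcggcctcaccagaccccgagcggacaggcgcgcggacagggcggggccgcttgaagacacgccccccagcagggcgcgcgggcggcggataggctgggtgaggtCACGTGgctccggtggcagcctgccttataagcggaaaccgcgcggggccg
Fasn: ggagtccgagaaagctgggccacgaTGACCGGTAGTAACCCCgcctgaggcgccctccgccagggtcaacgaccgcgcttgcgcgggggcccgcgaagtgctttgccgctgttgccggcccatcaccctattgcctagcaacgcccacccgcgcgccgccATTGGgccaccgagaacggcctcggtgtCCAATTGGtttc
Abca1: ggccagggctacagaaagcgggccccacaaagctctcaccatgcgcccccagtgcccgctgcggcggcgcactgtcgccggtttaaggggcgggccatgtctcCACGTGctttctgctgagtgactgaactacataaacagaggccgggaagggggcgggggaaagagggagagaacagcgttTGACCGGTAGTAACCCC

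The Lss window held 1 ATTGG in the bases shown. Those of Hsd17b7 and Insig1 held an ATTGG and a CACGTG each, with a second ATTGG in Hsd17b7. The windows of Fasn and Abca1 share a run of 17 bases, TGACCGGTAGTAACCCC, which begins 225 bases before the Fasn start and 67 bases before the Abca1 start. Of all 32851 windows, 2 held this run on either strand, the ones of Fasn and Abca1. The run was picked out after the sequences had been seen, as the longest stretch that the 2 windows share in the bases shown. Its presence in both was fixed by that choice, so the count of 2 does not test whether they share an element. Direct repeats of half-sites are the known form of liver X receptor elements. Such repeats were not searched for in these windows, and whether any factor bound here was not measured.

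Gene counts per library ran from 7012244 to 12533045, with 12847 to 13774 genes detected, so 3 counts corresponded to 0.235 to 0.448 CPM. CPM is a gene's count scaled to a fixed total of gene counts per library, here with TMM factors. Summed T cell markers, with Cd4 among them, lay between 5664 and 6011 CPM in all libraries. Within this sum, Cd28 rose from 1086 to 2619 CPM between naive and Th17 means, while 5 of 8 markers (Cd4, Cd3e, Cd3g, Cd2, Lck) fell. The summed Th17 list (Il17a, Il17f, Ccr6, Il23r, Il21) was 0.149 and 0.253 CPM in naive cells and 631 to 1289 CPM in the cultures. The 2 libraries of each group differed by more than sampling noise. In these bulk samples fewer cells of a type and less RNA per cell cannot be told apart. Of the markers of other lipid-making cells, 4 of 5 for adipocytes (Plin1, Lep, Cfd, Fabp4) and 2 of 3 for hepatocytes (Apoa1, Ttr) had 0 counts in all 8 libraries. Adipoq was at 0.298 to 2.51 CPM, and Alb had 1 count in 1 naive library.

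Per transcript length, Scd2, a stearoyl-CoA desaturase that makes monounsaturated fatty acids, had the highest level of the members in Th17 cultures, with a mean of 162 over the RPKM values that the authors deposited for the 2 libraries. Acly, which makes cytosolic acetyl-CoA from citrate, followed at 61.9 RPKM, then the lanosterol demethylase gene Cyp51 at 54.8, the late sterol desaturase Sc5d at 49.7, the elongase Elovl5 at 45.8 and squalene epoxidase, Sqle, at 36.6. The transcription factor genes Srebf1 and Srebf2 stood at 29.4 and 25.7 RPKM, with Fasn between them at 26.0. At the low end were Fdps at 3.22, Acaca at 1.77 and Idi1 at 0.280 RPKM. The annotation and strand option of the counting are not given, so this order holds for the members as counted, and a low value may come from the counting. In naive cells the order differed: Elovl5 at 45.8 and Acly at 40.5 RPKM led, and Scd2 stood at 8.22. The map of members by library shows the same contrast gene by gene.

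**Figure D1:**
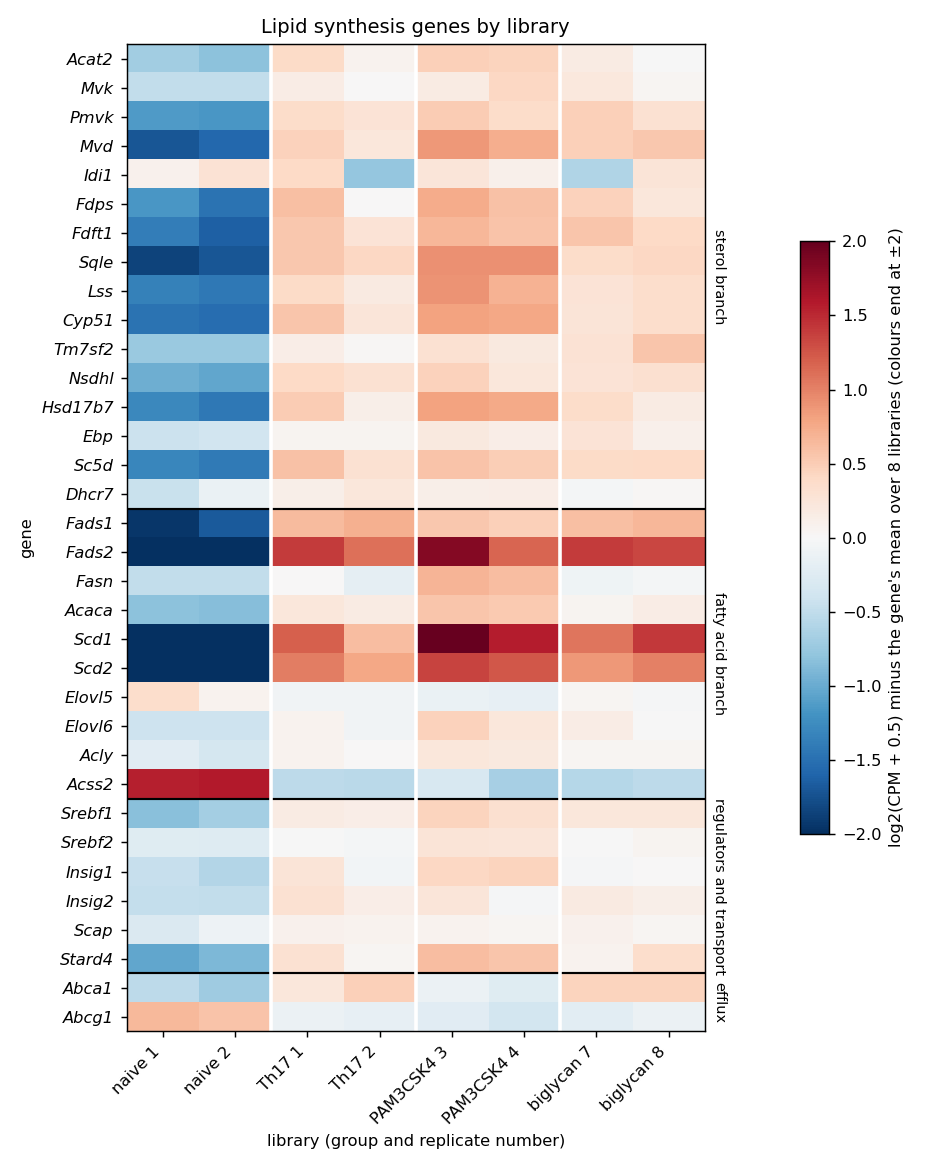
Level of each of the 34 tested members (rows) in each of the 8 libraries (columns), as log2(CPM + 0.5) minus the gene's mean over all libraries. Colours end at plus and minus 2, so Scd1, Scd2 and Fads2 in naive cells lie beyond the scale, and the naive columns differ from the 6 culture columns in nearly every row.

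Some members gave no usable level. Hmgcs1, the HMG-CoA synthase of the mevalonate pathway, had 0 counts in all 8 libraries and its 2 rows in the RPKM table were at 0. Of 260 symbols found on more than 1 row of that table, 88.8% had 0 counts in every library, against 31.6% of 23049 symbols on 1 row, so the 0 of Hmgcs1 is not read as a level. Me1, the cytosolic malic enzyme that supplies NADPH, reached at most 2 counts and was not tested.

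Th17 cultures were first compared with naive cells, which addresses how lipid synthesis genes differ once T cells are activated and polarized. Of 16 tested sterol branch genes 15 rose and 0 fell, with a median log2 fold change of 1.60. Of 10 fatty acid branch genes 8 rose and 2 fell, with a median of 0.74, and all 6 regulators rose, with a median of 0.69. Over all 34 members the median was 1.00, against 0.035 over all tested genes. This comparison called 72.2% of all tested genes, 37.8% higher and 34.4% lower, and 84.0% of genes had libraries that did not overlap between the groups, so a single call here is close to the background. The share of members that rose, 30 of 34, stands beside the 37.8% of all genes called higher.

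Among the mevalonate enzymes, Mvd, the decarboxylase that forms isopentenyl diphosphate, was at 13.1 and 14.5 CPM in naive cells and at 60.7 and 51.4 CPM in Th17 cultures, a log2 fold change of 2.02 ± 0.12 (SE, adjusted p = 8.32e-12). Fdps, which makes farnesyl diphosphate, rose from 4.33 and 3.41 CPM to 15.9 and 10.4 CPM (1.78). All Th17 libraries were above all naive libraries for both. Pmvk, the phosphomevalonate kinase (1.497), the thiolase Acat2 (1.02) and the mevalonate kinase Mvk (0.59) rose less. Idi1, the isopentenyl diphosphate isomerase, held 13 to 41 counts per library and did not pass the test. Its levels were 2.69 and 3.16 CPM in naive cells and 3.46 and 1.26 CPM in Th17 cultures, so the groups overlapped.

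All 3 genes of the steps from farnesyl diphosphate to lanosterol rose. Sqle, squalene epoxidase, a controlling step after the mevalonate pathway, was at 35.1 and 38.5 CPM in naive cells and 185 and 169 CPM in Th17 cultures, 4.80-fold higher (log2 2.26 ± 0.09, adjusted p = 5.97e-15). Squalene synthase, Fdft1, rose by 1.96 and lanosterol synthase, Lss, by 1.69 on the log2 scale. In all 3 the Th17 libraries lay above the naive ones.

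After lanosterol, Cyp51 moved from 115 and 112 CPM to 470 and 382 CPM (log2 1.91 ± 0.09, adjusted p = 2.00e-13). Sc5d rose by 1.82, the 3-ketosteroid reductase Hsd17b7 by 1.72, the decarboxylating dehydrogenase Nsdhl by 1.39 and the sterol reductase Tm7sf2 by 0.89. The isomerase Ebp rose by 0.46. Dhcr7, which catalyses the last step to cholesterol in one arm of the pathway, rose by 0.45, and its call ended without naive replicate 1 (log2 0.31, adjusted p = 0.0603).

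In the fatty acid branch the desaturases stood apart from the synthase. Scd2 was at 102 and 92.3 CPM in naive cells and 1716 and 1445 CPM in Th17 cultures, 16.3-fold higher (log2 4.03 ± 0.11, adjusted p = 9.12e-18). Its close relative Scd1 went from 0.746 and 1.01 CPM, 5 and 8 counts, to 47.2 and 31.7 CPM (log2 5.46 ± 0.34). The 2 genes are near copies, and how the authors' counting divided shared reads is not given in the sources used here. Fads1, the delta-5 desaturase of polyunsaturated fatty acids, rose by 2.50. Its neighbour Fads2 had 1 count over both naive libraries and 505 over both Th17 libraries, a CPM ratio of 333 with a 95% counting interval of 59.4 to 13159.

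Fasn, which carries out the whole cycle of palmitate synthesis, changed far less: it was at 358 and 356 CPM in naive cells and 508 and 444 CPM in Th17 cultures, 1.33-fold higher (log2 0.42 ± 0.08, adjusted p = 1.11e-04). Acaca, which commits acetyl-CoA to fatty acids as malonyl-CoA, rose from 17.8 and 17.4 CPM to 37.5 and 35.6 CPM (log2 1.06 ± 0.12). The elongase Elovl6 (0.43) and Acly (0.33) rose slightly, all with Th17 libraries above naive ones.

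The other 2 fatty acid genes fell. Acss2, which makes acetyl-CoA from acetate and so supplies the same pool as Acly, dropped from 126 and 130 CPM to 29.8 and 29.3 CPM (log2 -2.12, adjusted p = 1.95e-13). Elovl5 was at 299 and 245 CPM in naive cells and 223 and 222 CPM in Th17 cultures (log2 -0.29), and its call ended without naive replicate 1 (log2 -0.13, adjusted p = 0.129). Without that library 1 fatty acid gene was called lower rather than 2. On the scale of the authors' RPKM values, the median log2 ratio of Th17 to naive over 11271 tested genes was 0.34 (0.013 for the same genes in the count fit), and the log2 ratio of Elovl5 was -0.0027, so its fall depends on the scaling. No called member had the opposite sign on that scale. The sterol gene Idi1, which was not called, did: its log2 ratio was 0.96 there and -0.28 in the count fit.

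**Figure D2:**
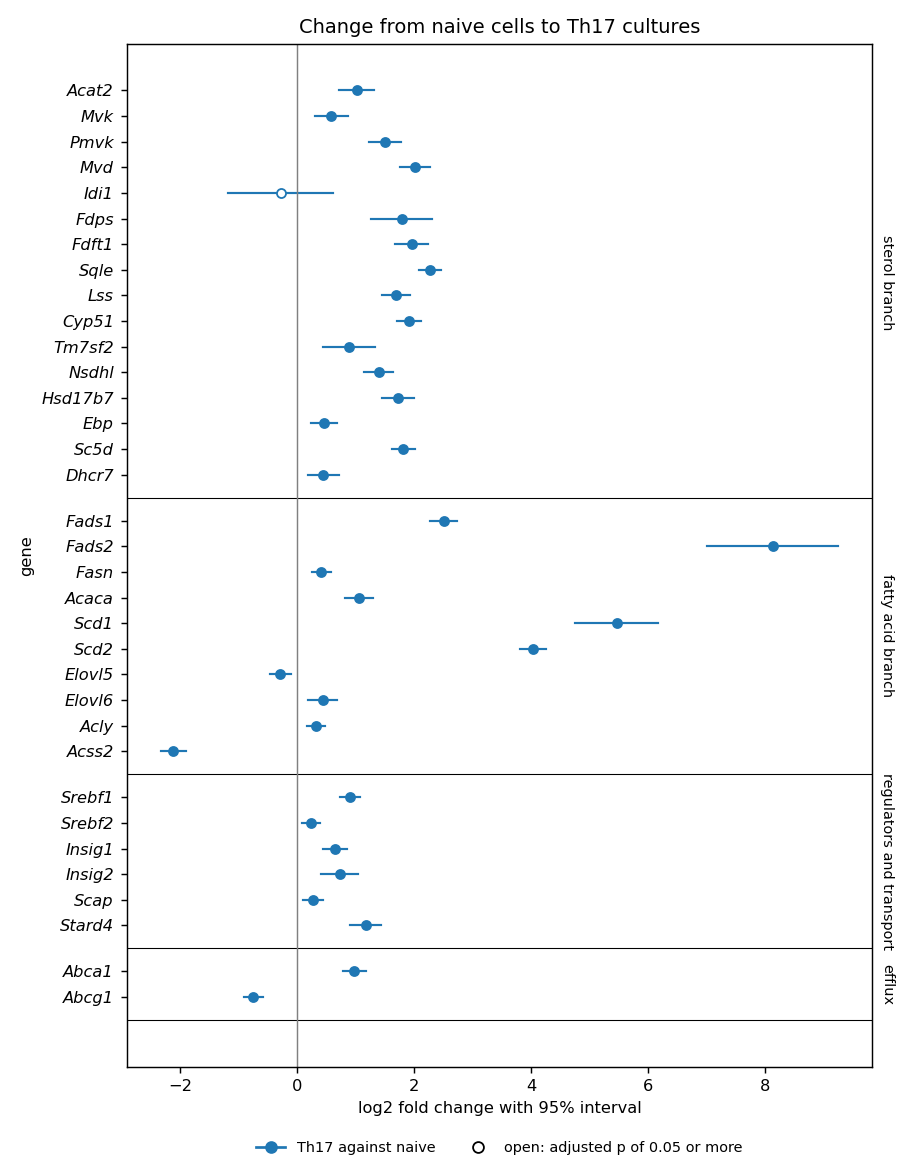
Log2 fold change of each tested member between Th17 cultures and naive cells, with its 95% interval from the fit over all 8 libraries; filled points have an adjusted p under 0.05. Sterol genes lie mostly between 0.45 and 2.26, the fatty acid genes spread from -2.12 for Acss2 to the desaturases, and the point of Fads2 depends on a single naive count.

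Among the regulators, Srebf1 was at 118 and 131 CPM in naive cells and 235 and 230 CPM in Th17 cultures (log2 0.90 ± 0.08), and Srebf2 at 189 and 186 CPM against 221 and 217 CPM (0.23 ± 0.07). Srebf1 is the isoform tied mostly to fatty acid genes and Srebf2 the one tied to sterol genes. Insig1, itself a target of SREBPs, rose by 0.65, its paralog Insig2 by 0.73 and the sterol carrier Stard4 by 1.17, while the escort Scap rose by 0.27. The call of Srebf2 ended without Th17 replicate 1 (log2 0.21, adjusted p = 0.0538) and that of Scap without naive replicate 1 (0.18, adjusted p = 0.0611).

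The exporters moved in opposite directions. Abca1, which loads cholesterol onto apolipoproteins, was at 94.5 and 83.5 CPM in naive cells and 160 and 190 CPM in Th17 cultures (log2 0.98 ± 0.09). Abcg1, which exports sterols to lipoprotein particles, went from 344 and 327 CPM to 203 and 196 CPM (log2 -0.75 ± 0.08). Of the 33 members called in this comparison, 29 were called under every alternative setting tried. The summed level of 6 proliferation genes was 56.1 and 56.5 CPM in naive cells and 2119 and 2359 CPM in Th17 cultures, and mitochondrial RNA was 9.87 and 11.98% of reads in naive libraries and 15.7 to 16.0% in Th17 libraries. Markers of CD8 T and natural killer cells summed to 72.1 and 71.8 CPM in naive cells and 8.35 and 6.86 CPM in Th17 cultures. Most of the naive sum was Prf1 (50.6 and 51.3 CPM) and Cd8b1 (20.9 and 20.0 CPM). Cd8a was at 0.597 and 0.505 CPM in naive cells and 0 in Th17 cultures, and Ncr1 had 0 counts in all libraries. Klrb1c was at 0 in naive cells and 0.844 and 0 CPM in Th17 cultures. Markers of B cells summed to 3.28 and 2.40 CPM in naive cells against 0.675 and 0.483 CPM, and those of myeloid cells to 15.2 and 11.9 against 7.00 and 7.54 CPM. The part of proliferation, mitochondrial RNA or other cell types in the changes was not tested.

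PAM3CSK4 was then compared with Th17 cultures without it, the comparison that addresses Toll-like receptor 2 stimulation during polarization. Of the sterol genes 5 of 16 rose, of the fatty acid genes 5 of 10 and of the regulators 3 of 6. None of these fell, and 1 of 2 exporters did. Over the same comparison 5.21% of all tested genes were called higher and 4.78% lower, 9.99% in all. The median log2 fold change was 0.22 for sterol genes, 0.32 for fatty acid genes and 0.25 for regulators, with -0.0024 over all tested genes. Libraries did not overlap for 53.0% of all genes, and for 10 of 16 sterol and 8 of 10 fatty acid genes.

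The sterol genes that rose lay on either side of lanosterol. Sqle was at 185 and 169 CPM in Th17 cultures and 239 and 239 CPM with PAM3CSK4, 1.35-fold higher (log2 0.43 ± 0.08, adjusted p = 9.73e-04). Lss was at 74.4 and 64.6 CPM and, with PAM3CSK4, 108 and 93.1 CPM (log2 0.53 ± 0.09, adjusted p = 9.01e-04). Cyp51 stood at 470 and 382 CPM against 562 and 551 CPM (0.38 ± 0.09). Both PAM3CSK4 libraries were above both Th17 libraries for each of these 3 genes. Mvd (0.45) and Hsd17b7 (0.45) rose by a similar amount. The remaining 11 sterol genes did not pass, Idi1 among them (0.26, 95% interval -0.56 to 1.08).

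Of the members, Fasn had the smallest adjusted p. It was at 508 and 444 CPM in Th17 cultures and 808 and 771 CPM with PAM3CSK4, 1.66-fold higher (log2 0.73 ± 0.08, adjusted p = 1.02e-05). Beside this stands its 1.33-fold difference between Th17 and naive cells, which shares the Th17 libraries, and the sizes were not tested against each other. Scd1 was at 47.2 and 31.7 CPM against 82.6 and 61.5 CPM (log2 0.87 ± 0.15), and Scd2 at 1716 and 1445 CPM against 2157 and 2016 CPM (0.40 ± 0.09). The groups did not overlap in any of the 3. Acaca (0.35) and Elovl6 (0.35) also rose. Fads1, Fads2, Elovl5, Acly and Acss2, the other 5 of the 10 tested, did not pass.

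Srebf2 was at 221 and 217 CPM in Th17 cultures and 265 and 262 CPM with PAM3CSK4 (log2 0.26 ± 0.07, adjusted p = 0.0230). Its call ended when either Th17 library or either PAM3CSK4 library was left out, with estimates of 0.25 to 0.28 over all alternatives. Srebf1, at 235 and 230 CPM against 288 and 261 CPM, had nearly the same estimate and missed the threshold (0.24 ± 0.08, adjusted p = 0.0557). It passed with no filter on low counts, in a fit of these 2 groups alone, with the replicate block and without either naive library. Insig1 rose by 0.32 and Stard4 by 0.40. The calls of Insig1 and Stard4 ended with DESeq2, without Th17 replicate 2 and without either PAM3CSK4 library. Insig2 did not pass (-0.11, 95% interval -0.39 to 0.16).

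Abca1 went the other way, from 160 and 190 CPM in Th17 cultures to 126 and 116 CPM with PAM3CSK4 (log2 -0.54 ± 0.09, adjusted p = 6.18e-04), with both PAM3CSK4 libraries below both Th17 libraries. Fasn and Abca1 thus moved in opposite directions with PAM3CSK4, while both rose in Th17 cultures against naive cells (log2 0.42 and 0.98). Whether the 17-base run shown above had any part in these values was not tested. Abcg1 was at 203 and 196 CPM against 187 and 171 CPM (-0.15 ± 0.08, adjusted p = 0.250).

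**Figure D3:**
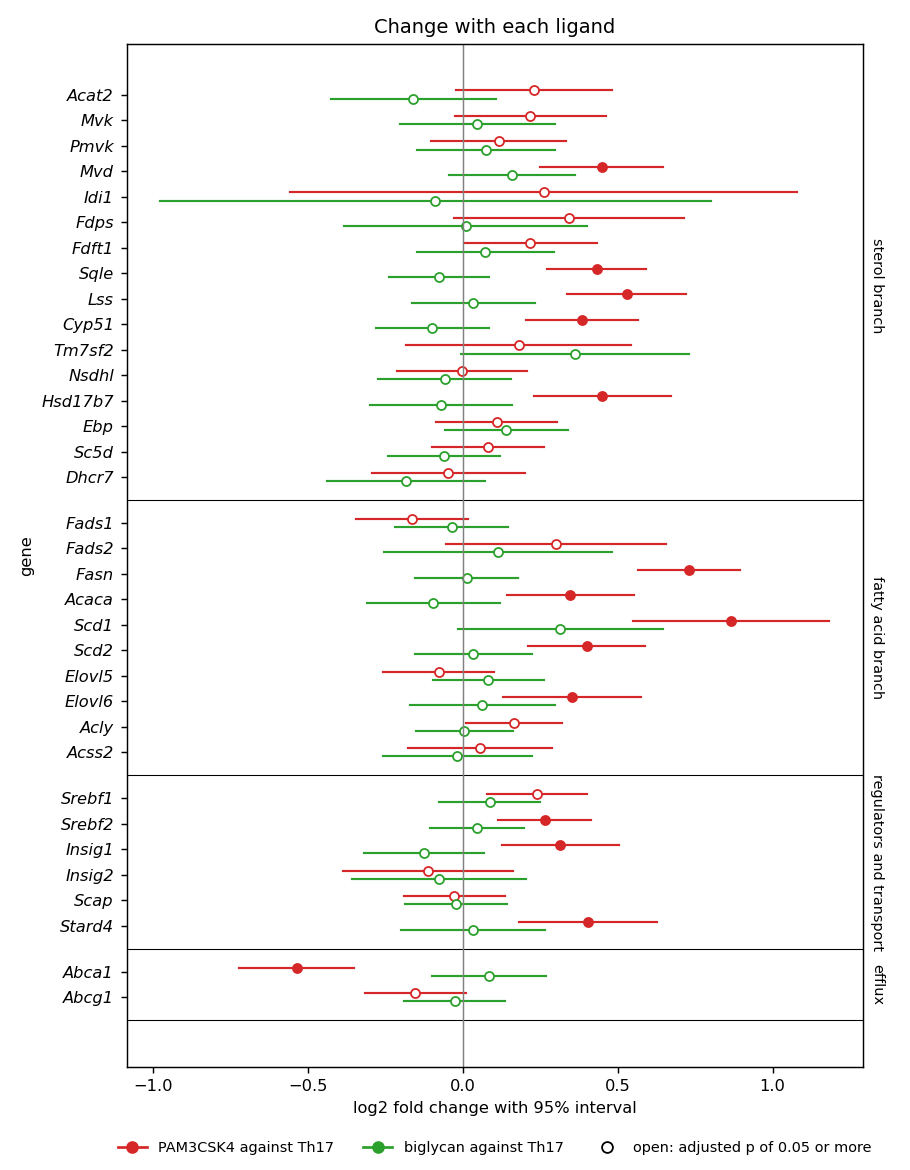
Log2 fold change of each tested member against Th17 cultures, with 95% intervals, for PAM3CSK4 (red) and biglycan (green); filled points have an adjusted p under 0.05. Both contrasts use the same Th17 libraries. PAM3CSK4 estimates reach 0.87 for Scd1 and -0.54 for Abca1, and no biglycan point is filled.

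Single libraries decided several of these calls. Sqle, Lss, Fasn, Scd1 and Abca1 were called under every alternative, 5 of the 14 members called. Without Th17 replicate 2 these 5 were the only members called, with 2 sterol and 2 fatty acid genes among them, and 348 genes were called in all. Without PAM3CSK4 replicate 3 the same 5 were called, among 587 genes. Without PAM3CSK4 replicate 4, 3 sterol genes (Mvd, Sqle, Lss) and 5 fatty acid genes (Fads2, Fasn, Scd1, Scd2, Elovl6) were called. Without Th17 replicate 1, 6 sterol genes and 3 fatty acid genes (Fasn, Scd1, Scd2) were called. Elovl6 and Insig1 also missed the threshold without either biglycan library. The replicates themselves differed in this pathway: Th17 replicate 1 was above replicate 2 for 14 of 16 sterol genes, 9 of 10 fatty acid genes and 6 of 6 regulators, against 49.6% of all tested genes. PAM3CSK4 replicate 3 was above replicate 4 for 14 of 16 sterol and 10 of 10 fatty acid genes, against 48.6% of all genes. Summed proliferation genes were at 2119 and 2359 CPM in Th17 and 2080 and 1768 CPM with PAM3CSK4, and their part was not tested.

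**Figure D4:**
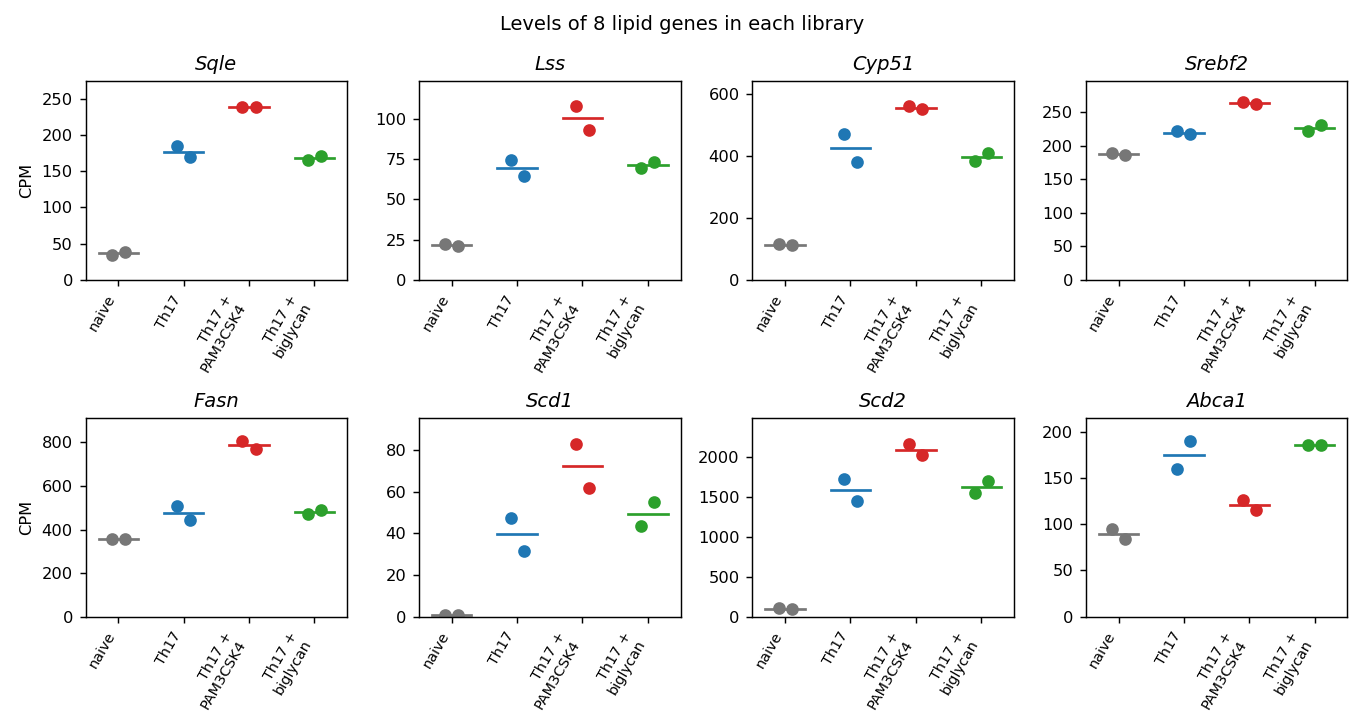
TMM-scaled CPM of 8 members in each library, with a horizontal line at each group's mean of 2 libraries; each panel has its own linear axis from 0. In all 8 panels the 2 PAM3CSK4 points lie outside the range of the Th17 and biglycan points, above it except for Abca1, where they lie below. The 8 were taken from members called in PAM3CSK4 against Th17, so their separation reflects that choice. Over all tested genes, libraries did not overlap for 53.0% in PAM3CSK4 against Th17 and 58.9% in PAM3CSK4 against biglycan.

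Biglycan was compared with the same Th17 cultures. None of the 34 members was called by edgeR, and 0 had an unadjusted p under 0.05; over all tested genes 0 (0%) were called and 506 had an unadjusted p under 0.05. DESeq2 also called 0 genes, with 210 at an unadjusted p under 0.05. The median log2 fold change was -0.025 for sterol genes, 0.023 for fatty acid genes and 0.0056 for regulators. Libraries did not overlap for 34.2% of all genes, and for 4 of 16 sterol and 2 of 10 fatty acid genes.

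Intervals bounded most members. Sqle was at 165 and 171 CPM with biglycan (95% interval of the log2 fold change -0.24 to 0.08) and Fasn at 473 and 489 CPM (-0.15 to 0.18). Scd2 was at 1539 and 1696 CPM (-0.16 to 0.22) and Acaca at 33.1 and 35.4 CPM (-0.31 to 0.12). Each biglycan range overlapped the Th17 range except that of Acaca, which lay just below it.

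Of the regulators, Srebf1 was at 247 and 247 CPM (-0.08 to 0.25), Srebf2 at 222 and 231 CPM (-0.11 to 0.20), and Insig1 at 97.2 and 99.8 CPM (-0.32 to 0.07). Insig2 was at 21.0 and 20.1 CPM (-0.36 to 0.21). Both biglycan libraries were above both Th17 libraries for Srebf1 and Srebf2, and the groups overlapped for Insig1 and Insig2. For the exporters the intervals were -0.10 to 0.27 for Abca1 and -0.19 to 0.14 for Abcg1. The interval of Scd1, at 43.6 and 55.0 CPM, was wider (log2 0.31, -0.02 to 0.65), and that of Idi1 ran from -0.98 to 0.80. Tm7sf2 had the highest estimate of the members, at 10.6 and 12.9 CPM with biglycan and 9.45 and 8.79 CPM in Th17 cultures (log2 0.36, 95% interval -0.0042 to 0.73), and was singled out after its values were seen. The upper bound was under 0.5 for 14 of 16 sterol genes, 9 of 10 fatty acid genes, 6 of 6 regulators and 2 of 2 exporters.

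The cultures with PAM3CSK4 and with biglycan were last compared with each other, which tests the difference between ligands directly, although the doses may have differed. With PAM3CSK4, 5 of 16 sterol genes, 4 of 10 fatty acid genes and 2 of 6 regulators were higher, none of these was lower, and 1 of 2 exporters was lower. Over all genes 5.64% were called higher and 5.88% lower, 11.5% in all. Libraries did not overlap for 58.9% of all genes, for 10 of 16 sterol genes and for 8 of 10 fatty acid genes. The medians were 0.23 for sterol and 0.24 for fatty acid genes. This comparison shares its PAM3CSK4 libraries with the one above, so its values are given beside it and not as a second test.

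Sqle, at 239 and 239 CPM with PAM3CSK4 and 165 and 171 CPM with biglycan, differed by 0.51 ± 0.08 on the log2 scale (adjusted p = 2.37e-04). Cyp51, at 562 and 551 CPM against 385 and 411 CPM, differed by 0.48 ± 0.09 (adjusted p = 1.13e-03). Lss (0.50), Hsd17b7 (0.52) and Acat2 (0.39) were also higher. All were above biglycan in both PAM3CSK4 libraries.

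Fasn, at 808 and 771 CPM against 473 and 489 CPM, differed by 0.72 ± 0.08 (adjusted p = 2.14e-05). Acaca (0.44), Scd1 (0.55) and Scd2 (0.37) were higher with PAM3CSK4, as were Insig1 (0.44) and Stard4 (0.37). Abca1 was at 126 and 116 CPM against 186 and 186 CPM (log2 -0.62 ± 0.09, adjusted p = 1.55e-04). Mvd (0.29, adjusted p = 0.0545) and Srebf2 (0.22, adjusted p = 0.0550) missed the threshold, and Srebf1 (0.15), Insig2 (-0.04), Abcg1 (-0.13) and Idi1 (0.35) did not pass.

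Sqle, Lss, Cyp51, Fasn and Abca1 were called under every alternative, 5 of the 12 members called. Without PAM3CSK4 replicate 3 or without biglycan replicate 7, 1 fatty acid gene, Fasn, was called, and without biglycan replicate 8, 3 sterol genes (Sqle, Lss, Cyp51) were called. Insig1 and Stard4 also lost their calls without biglycan replicate 7. Without PAM3CSK4 replicate 4 the calls of Acat2, Scd2 and Stard4 ended. Mitochondrial RNA was 14.3 and 14.7% of reads with PAM3CSK4 and 15.9 and 16.1% with biglycan, and summed proliferation genes were at 2080 and 1768 CPM against 2579 and 2714 CPM. Their part in these differences was not tested.

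Set side by side, the branch medians lay further apart in Th17 against naive cells (1.60 for sterol, 0.74 for fatty acid genes) than in PAM3CSK4 against Th17. In Th17 against naive cells the 16 sterol genes ranged from -0.28 to 2.26 on the log2 scale with 0 called lower. The 10 fatty acid genes ranged from -2.12 upward with Acss2 and Elovl5 called lower and 4 desaturases far above the rest. With PAM3CSK4 against Th17, 5 of 16 sterol and 5 of 10 fatty acid genes were called higher, with medians of 0.22 and 0.32. No test of one branch against the other was made.

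Other genes of the pathways were read from lists of neighbours. Of genes of sterol uptake, storage and control outside the members, 21 tested ones are reported, since some of the list are not reported here. Of these 21, 6 rose and 8 fell in Th17 cultures against naive cells, where 37.8% of all genes were called higher and 34.4% lower, so these counts are near the background. The cholesterol esterifying enzyme Soat1 rose by 1.76 and the lysosomal exporter Npc1 by 1.47, while the ubiquitin ligase Mylip was lower (-2.54), as were the lysosomal lipase Lipa (-1.15) and Ggps1 (-0.81), which makes geranylgeranyl diphosphate. With PAM3CSK4 against Th17, Soat1 (-0.40) and Lipa (-0.26) fell, beside 4.78% of all genes called lower. Soat1 was also lower with PAM3CSK4 than with biglycan (-0.28), beside 5.88% of all genes. The number called higher with PAM3CSK4 is left out, because the reported genes are not the whole list. With biglycan against Th17, 0 of the 21 were called, as were 0% of all genes.

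Among 18 tested neighbours of the fatty acid branch, 12 rose and 3 fell in Th17 cultures against naive cells, beside 37.8% of all genes called higher and 34.4% lower. The NADP-dependent dehydrogenase Idh1 rose by 3.00 and the acyl-CoA synthetases Acsl3 and Acsl4 by 2.08 and 1.505, while Acsl1 (-0.98), Acacb (-2.13) and Tecr (-0.26) were lower. With PAM3CSK4 against Th17, 3 rose: Dgat1, which completes triglyceride synthesis (0.60), Acsl3 (0.34) and Acsl4 (0.37). Beside this, 5.21% of all genes were called higher. With PAM3CSK4 against biglycan, 3 of the 18 were higher and 1 lower, beside 5.64% and 5.88% of all genes. None of the 18 was called with biglycan against Th17, where 0% of all genes were. Of 16 genes of fatty acid oxidation, 7 rose in Th17 cultures against naive cells, near the background of 37.8%. In that comparison 3 fell, beside 34.4% of all genes called lower. In either ligand's comparison with Th17, 0 were called, beside 9.99% of all genes for PAM3CSK4 and 0% for biglycan.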

How the data were processed

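Messenger RNA was sequenced from 8 libraries in 4 groups of 2, with a stranded mRNA kit per the labels. The submitters' processing notes name Bowtie2, HTSeq and the mouse build mm9. The versions, gene annotation and strand option used are not given in the sources used, so reads shared with near copies or antisense genes may be divided in an unknown way. The authors deposited raw counts per gene, which were used for all tests. Their deposited RPKM values were used only to order genes by level and to set ratios of group means beside the fit, and their deposited percent of reads from ribosomal and mitochondrial RNA only to describe libraries. The 5 summary lines of the count table name no gene, held 86.3 to 88.3% of each column's total, and were left out. The columns of the biglycan libraries carry numbers other than their titles and were matched through the library numbers in the deposited mapping table.

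Counts were filtered with filterByExpr by group and scaled with TMM factors in edgeR 4.0.16 (R 4.3.3). One quasi-likelihood fit over all 8 libraries, with 4 residual degrees of freedom, gave log2 fold changes, standard errors, 95% intervals and Benjamini-Hochberg adjusted p-values over all 11629 tested genes, two-sided, with a threshold of 0.05. Sharing the estimate of spread across genes added 15.9 prior degrees of freedom, on which the tests and intervals also rest. The script was tested on simulated data. Alternatives were RLE size factors, no filter, robust estimation, DESeq2 1.42.0, a fit of the 2 groups compared, the replicate block and leaving out each library. Counting intervals cover counting error only. The members and lists were chosen with earlier results of these data known. A member was named with its values where called, and 13 key members in every comparison; of the neighbouring lists up to 3 called genes in each direction with the smallest p were named. Some genes of the lists of sterol neighbours and Th17 markers are not reported here and were left out of those lists' counts and sums, which therefore do not describe the whole lists.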

Additional observations from a re-analysis of the deposited data

How the results depend on the processing

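With 2 libraries a group, single libraries decide many of the smaller calls, and low counts limit Idi1, Fads2 in naive cells and Me1. The number of sterol genes called higher ran from 14 to 15 (Th17 against naive), 2 to 6 (PAM3CSK4 against Th17) and 3 to 6 (PAM3CSK4 against biglycan) when each library was left out. For fatty acid genes called higher it was 8 throughout, 2 to 5 and 1 to 4. Genes called lower in Th17 against naive cells ran from 0 to 1 (sterol, Idi1 without Th17 replicate 1) and 1 to 2 (fatty acid). With DESeq2, 3 fatty acid genes were called higher with PAM3CSK4 against Th17 instead of 5. The cause of these moves was not tested. Biglycan against Th17 gave 0 called members under every alternative, and 29 genes in all with no filter on low counts.

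Signs under the alternatives were followed in each comparison for the called members and the tested key members, not for the other members. Among those followed, signs turned only when a library was left out, and only for values not called with all 8 libraries. One of them, Idi1 in Th17 against naive cells, was called lower without Th17 replicate 1 (adjusted p = 0.0466). Over the libraries left out, the log2 fold change of Idi1 ran from -1.22 to 0.23 (Th17 against naive), -0.26 to 1.197 (PAM3CSK4 against Th17), -0.71 to 0.85 (biglycan against Th17) and -0.084 to 0.97 (PAM3CSK4 against biglycan). That of Insig2 ran from -0.25 to 0.0088 (PAM3CSK4 against Th17), -0.16 to 0.020 (biglycan against Th17) and -0.18 to 0.085 (PAM3CSK4 against biglycan). In biglycan against Th17 it ran from -0.081 to 0.12 for Fasn, -0.085 to 0.16 for Scd2, -0.27 to 0.047 for Insig1, -0.033 to 0.21 for Abca1 and -0.077 to 0.023 for Abcg1.

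Naive and Th17 libraries share the replicate numbers 1 and 2, but these do not mark shared animals or days in the labels, and the deviations of same-numbered libraries correlated at 0.0276 over 11629 genes. With the replicate block, counts of called sterol and fatty acid genes were as in the report except for 6 rather than 5 sterol genes higher in PAM3CSK4 against biglycan. In PAM3CSK4 against Th17 the block gave 5 sterol and 5 fatty acid genes.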

Other observations

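Msmo1, the sterol methyl oxidase that acts after Cyp51, appears in RefSeq with the older symbol Sc4mol, which the count table held. It was looked up after the table had been seen and is not counted among the members. Its mean in Th17 cultures was 64.4 RPKM, between those of Scd2 (162) and Acly (61.9). Sc4mol was at 52.2 and 52.8 CPM in the naive libraries, 223 and 178 CPM in those of Th17 cultures, 260 and 258 CPM with PAM3CSK4 and 188 and 182 CPM with biglycan. Its log2 fold change was 1.93 in Th17 against naive cells, 0.37 with PAM3CSK4 against Th17 (adjusted p = 0.00973), -0.12 with biglycan against Th17 (adjusted p = 1) and 0.49 with PAM3CSK4 against biglycan (adjusted p = 0.00126).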
